A study of Mus musculus with 10 samples.

Results

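The genes described here are the receptors for epidermal growth factor (Egf) and fibroblast growth factor (Fgf) and the best known feedback and target genes of those receptors, 10 of 21883 protein-coding genes: Egfr, Fgfr1, Fgfr2, Fgfr3, Spry1, Spry2, Spry4, Etv4, Etv5 and Ccnd1. They were taken as a fixed list because the culture medium held both growth factors, at 20 ng/ml each. For each gene, all peaks on the RefSeq gene body and 5 kb either side (GRCm38) were collected from 8 peak lists. The lists came from native chromatin immunoprecipitation, in which chromatin is not crosslinked, of H3K4me3, H3K9cr, H3K27ac and H3K27me3. The cells were neural stem and progenitor cells of the mouse forebrain (E13.5), at passage 2 to 3, kept for 24 h with water (control) or with crotonate at 10 mM, a fatty acid with a short chain from which cells make crotonyl-CoA. Both groups grew in the same Egf and Fgf medium, so no group without growth factor was compared.

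Egfr and the Fgf receptors are receptor tyrosine kinases that, once bound by ligand, switch on the Ras and MAP kinase cascade. In embryonic forebrain this signalling keeps progenitors dividing, and cultured neural stem cells are grown in these 2 factors for that reason. The cascade induces the ETS transcription factors Etv4 and Etv5, cyclin D1 (Ccnd1), which drives cells through G1, and the Sprouty proteins (Spry1, Spry2, Spry4), which dampen the same cascade. H3K4me3 marks promoters in use or poised, H3K27ac and H3K9cr are acylations of active chromatin, and H3K27me3 is the repressive mark set by Polycomb repressive complex 2.

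There was 1 library per mark and treatment. Every difference below is between 2 libraries, with no replicate check, no test and no p-value. Read depth is unknown. As a substitute, the background under a peak was derived from its pileup and fold enrichment. Fold enrichment was taken as pileup plus 1 over background plus 1. The smallest background per list lay between 2.67 and 3.74 fragments. It was lower in crotonate for each mark, most for H3K9cr (3.74 in control, 3.20 in crotonate) and H3K27ac (3.11 in control, 2.68 in crotonate). Pileup (fragments stacked at the summit), fold enrichment and -log10 q of a peak are the authors' values and are given to describe peaks within their own list. A control peak with no crotonate peak of the same mark on it is termed lost, and the reverse gained; both words refer to the lists only. All 10 markers of neural stem and progenitor cells checked, Sox2, Nes and Pax6 among them, had H3K4me3 and H3K27ac at the start in both treatments, whereas 0 of 4 microglial, 0 of 3 endothelial and 0 of 3 astrocyte markers did. Neuronal markers with both marks numbered 4 of 6 in control and 3 of 6 after crotonate, the difference being Tubb3. H3K27me3 was at the start of 4 of the 10 progenitor markers in control and 1 after crotonate (Nr2e1, Sox1 and Notch1 lost it), and of 3 and 1 of the 6 neuronal markers. H3K4me3 and H3K27ac were both at the start of 1 of 3 mesenchymal and 1 of 4 oligodendrocyte markers in each treatment. H3K27me3 was at 3 of the 3 mesenchymal markers in each treatment.

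The DNA just before 4 of the starts is shown because their chromatin differed: Egfr had H3K27me3 at its start in control only, Fgfr3 in both treatments, Spry2 in neither, and at Fgfr2 H3K4me3 lay wholly inside the gene. Each run is the 250 bases before the RefSeq start (GRCm38.p6), read 5′ to 3′ on the strand of the gene, with GC boxes (GGGCGG or its reverse complement, the kind of site bound by Sp1) in capitals.
Egfr (chr11:16751953-16752202, plus strand): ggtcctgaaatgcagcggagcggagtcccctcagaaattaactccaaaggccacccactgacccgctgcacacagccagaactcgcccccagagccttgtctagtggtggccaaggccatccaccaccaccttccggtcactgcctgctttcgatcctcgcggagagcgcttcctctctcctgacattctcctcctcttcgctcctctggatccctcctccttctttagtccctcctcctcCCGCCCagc
Fgfr3 (chr5:33721474-33721723, plus strand): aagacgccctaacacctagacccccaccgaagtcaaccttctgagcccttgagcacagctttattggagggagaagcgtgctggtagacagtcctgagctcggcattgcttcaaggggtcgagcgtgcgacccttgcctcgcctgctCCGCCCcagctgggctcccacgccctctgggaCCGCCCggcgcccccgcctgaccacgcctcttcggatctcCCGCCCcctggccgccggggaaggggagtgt
Spry2 (chr14:105896820-105897069, minus strand): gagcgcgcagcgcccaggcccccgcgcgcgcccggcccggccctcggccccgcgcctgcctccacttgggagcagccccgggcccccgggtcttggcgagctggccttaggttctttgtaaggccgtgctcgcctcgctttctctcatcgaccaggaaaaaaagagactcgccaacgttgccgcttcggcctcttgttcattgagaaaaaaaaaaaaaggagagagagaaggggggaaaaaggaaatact
Fgfr2 (chr7:130266809-130267058, minus strand): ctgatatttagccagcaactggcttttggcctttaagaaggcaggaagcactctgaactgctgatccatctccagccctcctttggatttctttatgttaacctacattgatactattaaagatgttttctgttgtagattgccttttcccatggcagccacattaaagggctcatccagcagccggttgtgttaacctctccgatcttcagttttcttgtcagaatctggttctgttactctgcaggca

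The RefSeq table of starts held 8 starts of 6 of the genes (Egfr, Fgfr2, Fgfr3, Spry1, Spry2, Etv5) and no entry for Fgfr1, Spry4, Etv4 and Ccnd1. The Egfr stretch held 1 GC box and 11 CpG dinucleotides, the Fgfr3 stretch 3 and 19, the Spry2 stretch 0 and 23, and the Fgfr2 stretch 0 and 2. Across 21262 such windows the median was 10 CpG, and 42.6% held a GC box. The Fgfr2 window, at percentile 22.6 for CpG, was the only 1 of the 8 that no H3K4me3 peak touched in either treatment, against 57.4% of all windows touched in control and 58.6% after crotonate. The ETS core CCGGAA, searched on both strands, was found in the Egfr window alone of the 8 and in 15.0% of all windows. TATAAA (11.6% of all windows), TGANTCA (6.13%) and TGACGTCA (1.92%) were found in 0 of the 8. A match or its absence describes these letters only. For the 4 genes with no table entry both annotated ends were examined, and in each of them exactly 1 end carried H3K4me3 in both treatments. That end serves as the reference for their distances below and is called the start.

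The receptor genes lie at chr11:16752203-16913907 (Egfr, 162 kb), chr8:25518759-25575718 (Fgfr1, 57.0 kb), chr7:130162451-130266808 (Fgfr2, 104 kb) and chr5:33721724-33737068 (Fgfr3, 15.3 kb). The Sprouty genes lie at chr3:37639947-37644599 (Spry1, 4.65 kb), chr14:105891947-105896819 (Spry2, 4.87 kb) and chr18:38586247-38601347 (Spry4, 15.1 kb). The ETS factor genes lie at chr11:101769747-101785310 (Etv4, 15.6 kb) and chr16:22381313-22439570 (Etv5, 58.3 kb), and Ccnd1 at chr7:144929931-144939831 (9.90 kb). Long genes such as Egfr offer more room for peaks than short ones, so peak counts are not set against each other between genes as a measure of marking.

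The start of every gene in the list carried H3K4me3, H3K9cr and H3K27ac within 1 kb in both treatments, 10 of 10 for each mark. Of all genes, 60.6%, 61.9% and 57.8% carried these marks there in control. The members differed in H3K27me3. In control, Egfr, Fgfr3, Etv4 and Ccnd1 had it at the start, 4 of 10 against 20.9% of all genes, and after crotonate Fgfr3 alone did, so that 3 of 4 lost it. With the stronger 50% of each list only Fgfr3 had it at the start, 1 gene in each treatment, so the difference at the starts was then gone. Of all genes with H3K27me3 at the start in control, 18.6% lost it, and 2.18% of those without it gained it, as 0 of the other 6 members did. Over the whole regions 6 of the 10 genes had H3K27me3 in control (Fgfr1 and Fgfr2 in addition), against 33.8% of all genes, and 3 after crotonate, whereas 11.4% of all genes with the mark in the region had none left. Spry1, Spry2, Spry4 and Etv5 had no H3K27me3 peak in either list.

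**Figure D1:**
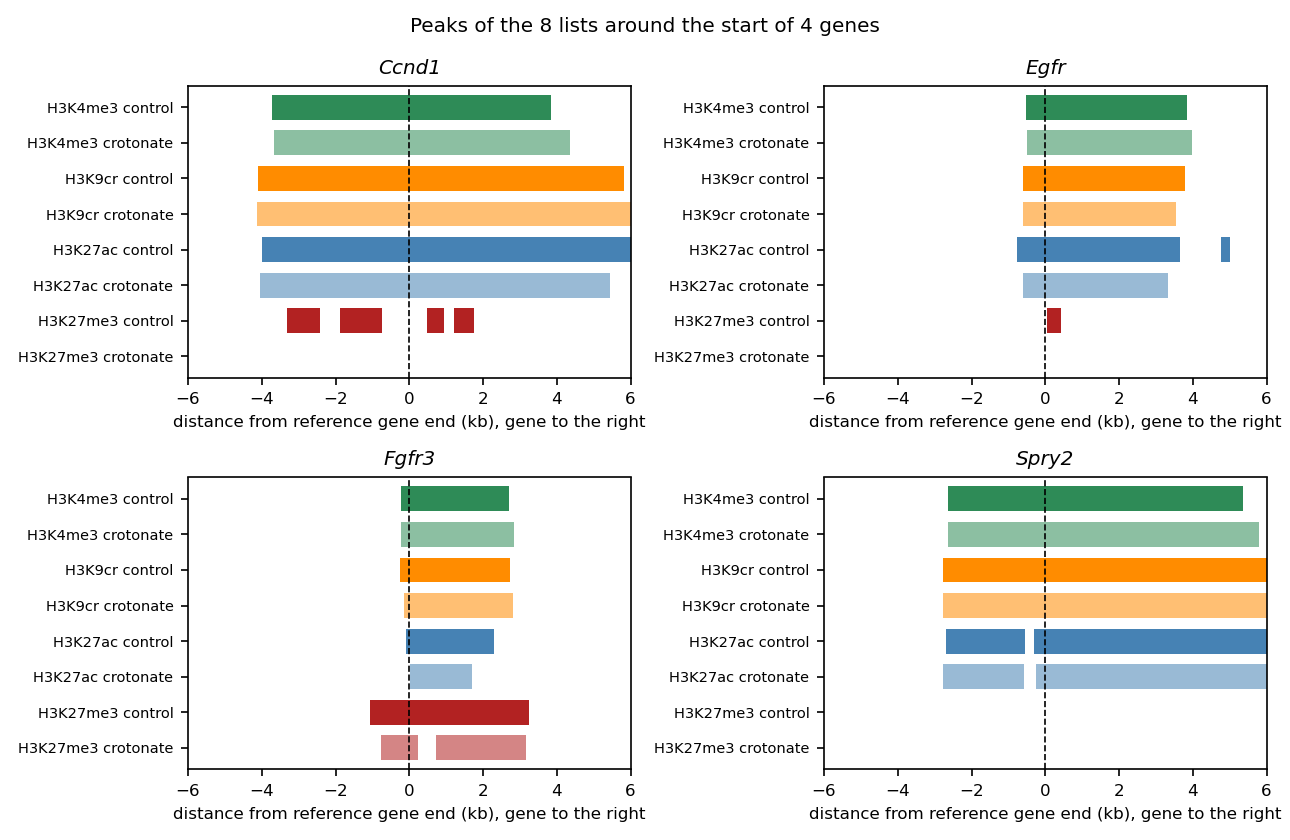
Peaks of the 8 lists around the start of Ccnd1, Egfr, Fgfr3 and Spry2; the x axis is the distance from the start in kb, with the gene to the right. Solid bars are control peaks and pale bars crotonate peaks, and bars reaching 6 kb are cut there. Ccnd1 and Egfr have H3K27me3 bars (4 and 1) in control only, Fgfr3 has them in both treatments and Spry2 has none.

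At Ccnd1 all 4 control H3K27me3 peaks were lost. They lay at chr7:144938086-144938621, chr7:144938887-144939347, chr7:144940567-144941714 and chr7:144942254-144943139, from 1.75 kb inside the gene to 3.31 kb before its start. Their pileups were 10, 13, 14 and 13, their fold enrichments 2.85, 3.79, 4.07 and 3.79, and they stood at percentiles 3.05, 34.4, 42.4 and 34.4 of the control list by -log10 q. The crotonate list had 0 peaks there. All 4 lay under the same H3K4me3 peak, which was 7.54 kb wide in control (pileup 858) and 8.03 kb after crotonate (pileup 788). H3K9cr (pileup 834 and 534) and H3K27ac (183 and 173) covered the same stretch in a single peak each per list, 9.92 and 10.6 kb wide for H3K9cr, 10.0 and 9.49 kb for H3K27ac. Lists of separate libraries do not show whether marks lie on the same DNA in the same cells.

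At Egfr the lost H3K27me3 peak was a short one of 386 bp (chr11:16752255-16752640), 52 to 437 bp inside the gene. It had a pileup of 11, 3.25-fold enrichment and percentile 15.0 of its list. The H3K4me3 peak over it was among the strongest measured, rank 6 of 17322 in control (pileup 1331, 281-fold) and rank 48 of 18001 after crotonate (pileup 1011, 261-fold), with its summit 348 bp inside the gene in both lists. The summits of H3K9cr (338 bp in both lists) and H3K27ac (305 and 453 bp) lay close by.

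At Etv4 the lost peak was 302 bp wide (chr11:101786293-101786594), centred before the start, with a pileup of 13, 2.64-fold enrichment and percentile 4.70. It touched the 1 kb window by its edge only, it did not touch H3K4me3, and it lay within the lncRNA Gm39392. The near annotated end of Gm39392 lies 11 bp before the Etv4 start, and its strand was not given. The remaining lost H3K27me3 peak was at Fgfr2, 46.2 kb into the gene (pileup 12, percentile 24.8).

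Fgfr3, the receptor gene that kept H3K27me3 at its start, had the strongest peak of the mark in the list. In control it was a single peak of 4.30 kb with a pileup of 45, 12.5-fold enrichment and percentile 86.7. After crotonate there were 2 peaks on it of 1.00 and 2.43 kb, each with a pileup of 20, 5.41-fold and 5.72-fold, at percentiles 75.9 and 77.1. Fgfr3 also had the lowest H3K27ac pileup at the start among the 10 genes, 39 in control and 28 after crotonate.

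At Fgfr2, whose H3K4me3 summit lay 1.08 kb inside the gene in control and 1.07 kb after crotonate, an H3K27me3 peak 2.45 to 4.91 kb inside the gene had a pileup of 34 and 9.05-fold enrichment in control. Its crotonate partner covered 466 bp with a pileup of 18 and 4.42-fold enrichment. In each list this H3K27me3 peak touched the H3K4me3 peak at the Fgfr2 start, though it lay outside the 1 kb window. Another group of Fgfr2 peaks lay 46.2 to 54.8 kb into the gene in control, beside an intronic site with H3K9cr and H3K27ac. The strongest of them was at percentile 74.8 in control (pileup 24). The widest, 1.90 kb in control and 1.87 kb after crotonate, had pileups of 28 and 27. A weak control peak of 269 bp (pileup 11, 2.49-fold, percentile 0.699) went the other way. Its crotonate partner was 709 bp wide, with a pileup of 15, 4.36-fold enrichment and percentile 58.0. Fgfr1 had H3K27me3 away from its start, 3.66 kb before it at the summit, in a peak of 1.78 kb with a pileup of 36 in control and of 669 bp with a pileup of 16 after crotonate. That site also held H3K9cr and H3K27ac in both treatments and no H3K4me3.

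Summed over the 10 regions, 7 of 14 control H3K27me3 peaks were lost (50.0%, exact 95% interval 23.0 to 77.0, counting error only), against 26.2% of such peaks in the regions of all protein-coding genes, and 0 of 8 crotonate peaks were gained, against 38.4%. Of the 7, 4 belong to Ccnd1 and lie in 1 domain, so they are not independent. The intervals given below for the other marks also hold counting error only. The lost peaks were the weak ones: 7 of the 9 in the weaker 50% of the control list were lost and 0 of the 5 in the stronger 50%, while 43.4% of all control peaks in the weaker 50% and 8.75% of those in the stronger 50% were lost. All 5 weaker peaks that touched H3K4me3 were lost. Of all weaker peaks touching H3K4me3, 77.0% were, so the share at these genes lies near what such peaks showed elsewhere. The length covered by H3K27me3 was 17.0 kb in control and 8.11 kb after crotonate, 0.477 times as much. The whole list, which also holds peaks outside gene regions, covered 1.11 times as much. Gene by gene, the median ratio of crotonate to control cover was 0.187 for the 6 members with the mark and 0.964 for all genes with it. The cover was shorter in 6 of 6 genes with the mark, against 54.7% of all genes with it. Under a rule of 50% overlap of each peak, 11 were lost and 5 gained, and within the stronger 50% of each list 1 was lost and 1 gained. The vendor named in the labels for the H3K27me3 antibody differs between treatments under the same catalogue number, which cannot be told apart from the treatment. Fewer cells with the mark and less of it per cell cannot be told apart in such data.

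**Figure D2:**
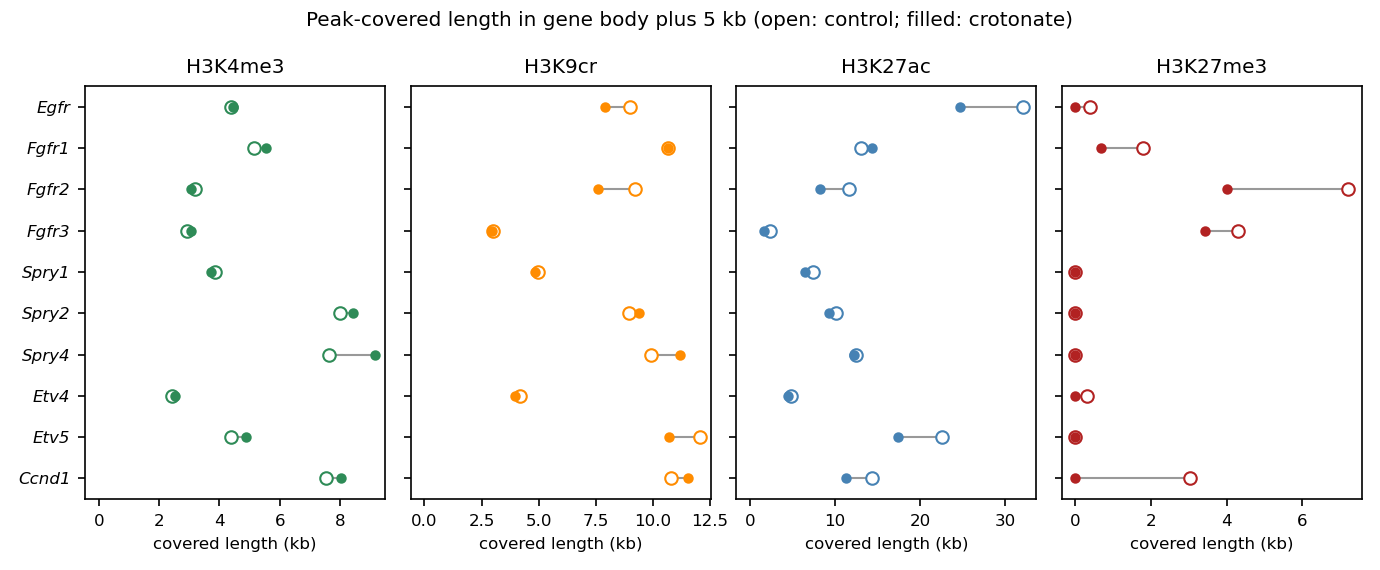
Length covered by peaks of each mark (x axes, kb) in the body plus 5 kb of each gene, open circles for control and filled ones for crotonate, 1 library each. H3K27me3 cover was shorter after crotonate in all 6 genes that had it, H3K27ac cover in 9 of 10, and H3K4me3 cover was longer in 8 of 10.

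H3K4me3 differed little between treatments. The lists held 14 and 13 peaks, of which 1 was lost (7.14%, 0.181 to 33.9; 1.77% of all peaks in gene regions) and 0 gained (5.45%). The lost peak was a weak one 18.3 kb into Fgfr1, with a pileup of 15 at percentile 2.06. The cover was longer in 8 of the 10 genes and shorter in Fgfr2 and Spry1, 49.5 kb in control and 52.9 kb after crotonate; among all genes 30.8% had a shorter cover.

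The widths of these promoter peaks set the genes apart from each other. Spry2, Spry4 and Ccnd1 had the widest, 7.99, 7.63 and 7.54 kb in control and 8.42, 9.16 and 8.03 kb after crotonate. They ranked 27, 35 and 38 of 17322 by width in control and 26, 21 and 30 of 18001 after crotonate, where the median peak was 1433 and 1465 bp wide. The Spry4 peak also covers the near end of the neighbouring gene Arhgap26, 270 bp before the Spry4 start, so the marks of the 2 genes cannot be told apart there. Egfr, which had the highest H3K4me3 pileup, had a peak of 4.37 and 4.46 kb. Spry1 (3.86 and 3.73 kb), Etv5 (3.78 and 4.32 kb), Fgfr1 (3.47 and 3.53 kb), Fgfr2 (3.19 and 3.06 kb) and Fgfr3 (2.94 and 3.07 kb) followed, and Etv4 had the narrowest, 2.42 and 2.54 kb. Etv4 also had the lowest H3K4me3 pileup, 444 and 407, near the median of the lists, 423 and 374. The peaks of all 10 genes were thus wider than the median peak of their list, but the share of all marked starts with such a peak was not computed.

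**Figure D3:**
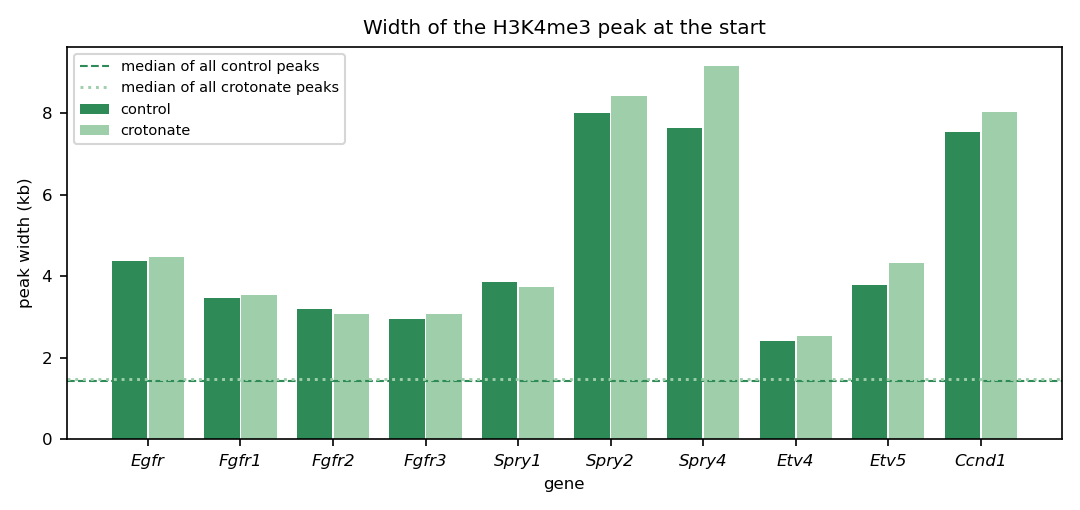
Width in kb of the H3K4me3 peak at the start of each gene in control (dark) and crotonate (pale), with lines at the median of all peaks of each list. Spry2, Spry4 and Ccnd1 lie at 7.54 kb or above in both lists and Etv4 is the narrowest at 2.42 and 2.54 kb.

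Most H3K9cr peaks at these genes lay on H3K27ac, but most H3K27ac peaks lay away from H3K9cr. All 28 control H3K9cr peaks touched H3K27ac, and 24 of 26 crotonate ones (92.3%) did, against 90.1% and 82.3% of the H3K9cr peaks in all gene regions. In the other direction, 29 of 80 control H3K27ac peaks (36.2%) touched H3K9cr, against 57.2% in all gene regions. After crotonate 30 of 86 (34.9%) did, against 48.3%. Egfr alone held 31 of the control and 34 of the crotonate H3K27ac peaks, most of them without H3K9cr. The shares without Egfr were not computed, and peaks of 1 gene are not independent. Lost were 3 of 28 H3K9cr peaks (10.7%, 2.27 to 28.2) and gained 3 of 26 (11.5%, 2.45 to 30.2), against 11.8% and 14.5% in all gene regions. All 6 lay away from the start, with pileups of 11 to 22 and at or under percentile 18.4 of their list. They belonged to Egfr, Fgfr2 and Etv5 (lost) and Fgfr1, Etv5 and Ccnd1 (gained). How often lost and gained H3K9cr peaks of all genes are weak and away from a start was not computed. The cover was 82.7 and 80.8 kb and was shorter in 6 of 10 genes, against 48.1% of all genes.

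At the starts, the H3K9cr pileup in control was highest at Spry4 (1060), Spry2 and Etv5 (1032 each), followed by Egfr (871), Ccnd1 (834), Fgfr2 (778), Spry1 (708), Etv4 (566), Fgfr1 (519) and Fgfr3 (365). After crotonate it was 682 at Spry2, 596 at Spry4, 534 at Ccnd1, 500 at Etv5, 399 at Spry1, 394 at Egfr, 314 at Fgfr2, 274 at Fgfr1, 187 at Fgfr3 and 180 at Etv4. The median pileup of the whole lists was 74 and 41, so all 10 lay above it in each. Those lists also hold peaks away from starts, and the share of all marked starts above the median was not computed. Etv4 stood at percentile 85.4 of the control list and 73.7 of the crotonate list, and Spry2 at 98.8 and 99.3.

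Because pileups of separate libraries cannot be set against each other directly, sites away from the start were measured against the start of the same gene in the same list. Of H3K9cr, 13 such sites in 5 genes had a partner in both lists. Fgfr1 held the strongest of them. Its site 18.3 kb into the gene (chr8:25535480-25538363) had a pileup of 315 in control and 92 after crotonate, where the start had 519 and 274. The site thus reached 0.607 of the start in control and 0.336 after crotonate. A further site 25.9 kb into the gene (chr8:25542538-25545938) had 470 and 147, which is 0.906 and 0.536 of the start. Both intervals lie in the lncRNA Gm31288 as well, and the second covers its annotated end.

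H3K27ac at the same Fgfr1 sites did not follow that order. The pileups were 146 and 98 at the first site and 199 and 104 at the second, against 84 and 48 at the start. The sites had 1.74 and 2.37 times the H3K27ac of the start in control and 2.04 and 2.17 times after crotonate. For H3K9cr the Fgfr1 start thus had a higher pileup than either site in both lists, and for H3K27ac both sites had a higher pileup than the start. With fold enrichment in place of pileup, H3K9cr stood at 0.448 and 0.450 times its control relation to the start, and H3K27ac at 0.727 and 0.722 times. On that scale both marks were thus lower against the start after crotonate at both sites, H3K9cr by more.

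The other strong H3K9cr sites went both ways. The Egfr site 79.6 kb into the gene (chr11:16830282-16832970), which overlaps an end of the antisense lncRNA Egfros, had pileups of 98 and 34, 0.113 and 0.0863 of the start. The Fgfr2 intronic site 51.5 kb into the gene (chr7:130214549-130216736) had 195 and 102, 0.251 and 0.325 of the start. At Etv5 a site 10.2 kb into the gene had 126 and 39, 0.122 and 0.0780, and at Etv4 the site 5.43 kb before the start had 119 and 35, 0.210 and 0.194. In all, 7 of the 13 sites stood lower against the start after crotonate, against 40.3% of 11090 gene-site pairs in all genes. Of sites with a control pileup at or above the list median, 5 of 7 did, against 54.7%. Some sites share a crotonate partner (2 in Egfr, 2 in Etv5). Because a shared site must be called in both lists, weak sites had little room to stand lower.

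**Figure D4:**
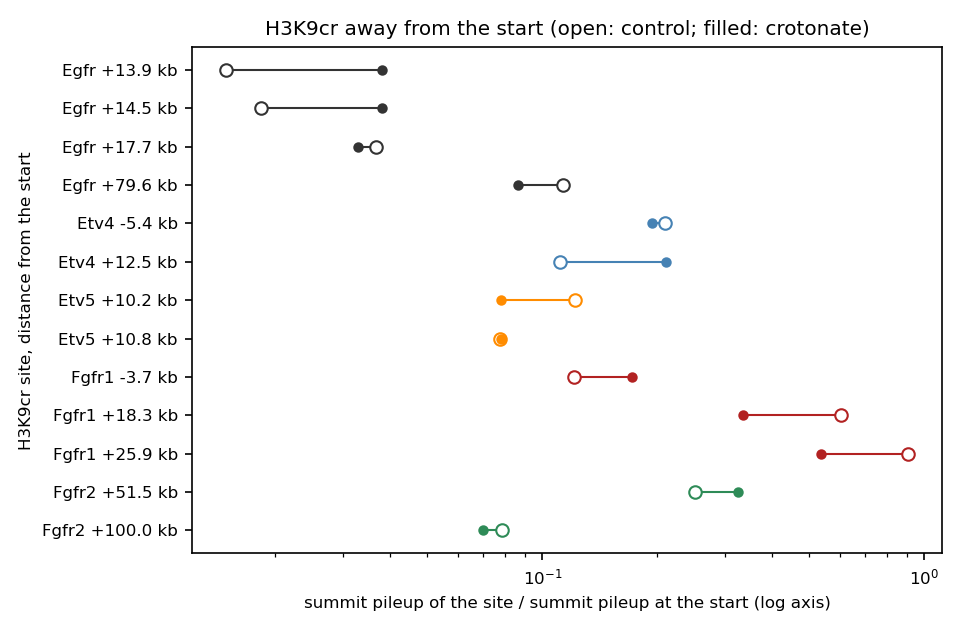
Summit pileup of each of 13 H3K9cr sites away from the start, divided by that of the start of the same gene in the same list (x axis, log scale), open circles for control and filled ones for crotonate. The 2 Fgfr1 sites at +18.3 and +25.9 kb have the highest ratios in both lists and stand lower after crotonate, and the Fgfr2 site at +51.5 kb stands higher.

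H3K27ac had the most peaks, 80 in control and 86 after crotonate, spread over the bodies of the long genes. Egfr alone held 31 and 34 and Etv5 17 and 20. Lost were 22 (27.5%, 18.1 to 38.6) and gained 24 (27.9%, 18.8 to 38.6), against 23.1% and 31.1% of the H3K27ac peaks in all gene regions. These counts depended on the rule: 40 and 47 with an overlap of 50% of each peak, 10 and 14 with peaks within 1 kb taken as shared, 4 and 8 with peaks within 3 kb merged, and 2 and 8 in the stronger 50% of each list. Egfr had 13 of the losses and 14 of the gains, and without it 9 of 49 peaks were lost and 10 of 52 gained. The intervals take the peaks as independent, which peaks of 1 gene are not. All 22 lost and all 24 gained peaks lay away from the starts. They were weak, with pileups of 10 to 20 (lost) and 9 to 17 (gained) and at most at percentile 39.3 and 47.4 of their lists. Of the lost ones 2 touched H3K9cr, of the gained ones 0. These shares were not computed over all lost or gained H3K27ac peaks, so the traits cannot be called particular to these genes.

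The length under H3K27ac was shorter after crotonate in 9 of 10 genes, Fgfr1 (13.0 and 14.4 kb) being the exception, and 71.1% of all genes had a shorter cover. In sum it was 131 kb in control and 110 kb after crotonate, 0.842 times as much, and 0.876 times for the whole lists. The difference of -20.7 kb (crotonate minus control) was -3.62 kb with peaks within 3 kb merged. At Egfr it was 32.1 and 24.6 kb and at Etv5 22.6 and 17.5 kb. Spry4 (12.5 and 12.2 kb) and Spry2 (10.1 and 9.28 kb) differed least among the genes with over 10 kb of cover. At the starts the strongest H3K27ac peaks by -log10 q had pileups of 211 and 132 at Etv5, 183 and 173 at Ccnd1, 170 and 168 at Spry4, 161 and 139 at Spry2, 123 and 72 at Egfr, 122 and 55 at Etv4, 113 and 99 at Spry1, 97 and 47 at Fgfr2, 84 and 48 at Fgfr1 and 39 and 28 at Fgfr3. The 2 Spry2 values belong to different peaks. Its peak before the start had 161 and 138, and its peak over the gene 156 and 139. Measured against the start within each list, 8 of 44 shared H3K27ac sites stood lower after crotonate, against 37.7% of 18660 pairs in all genes, and 6 of 15 strong ones, against 51.8%. With fold enrichment 10 of the 44 did, against 39.4%, and 7 of the 15, against 51.7%. A shared site must be called in both lists, so a weak site had little room to stand lower where the start pileup fell. Strong sites, with a control pileup at or above the list median of 23, were 15 of the 44 but 10881 of the 18660 pairs. The comparison over all sites is thus not a like one, and no conclusion is drawn from it. Most of the 44 sites lie in Egfr and Etv5. Sites of a gene share 1 start value, and some share a crotonate partner, so they are not independent.

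The other genes of the pathway, 45 from receptors (Erbb2, Erbb3, Erbb4, Fgfr4) and adaptors to kinases, phosphatases and immediate early genes, were examined at their starts in the same way. H3K4me3 and H3K9cr were present at 44 of 45 and H3K27ac at 43 of 45 in both treatments, with 0 losses and 0 gains of these marks. Among all genes 0.287% of those with H3K4me3, 0.754% with H3K9cr and 2.97% with H3K27ac lost it, and 3.70%, 4.50% and 4.33% of those without gained it. H3K27me3 marked 9 in control and 8 after crotonate, a loss in 1 of 9 against the 18.6% of all genes. The only gene that differed was Erbb4, the neuregulin receptor. Its control peak of 5012 bp, with a pileup of 58 at percentile 89.1, has a crotonate partner that no longer reaches the window, so its edge moved. By the state of the start in the 8 lists, Egfr, Etv4 and Ccnd1 share their pattern with 755 of all genes (3.45%, these 3 included), and Erbb4 was the only pathway gene to match them in all 8. The pattern of Fgfr3, H3K27me3 in both treatments beside the other marks, was shared by Erbb2 and Erbb3, receptors of the Egfr family, Dusp5, a phosphatase of Erk, and Ccnd2, cyclin D2, among others, and by 1687 of all genes. The other 6 members shared the state without H3K27me3 with 35 pathway genes, among them Dusp6, a phosphatase of Erk induced by the same cascade, Spred1, Egr1, Fos and Myc, and with 9376 of all genes (42.8%). For Fgfr2 this state holds for the window only, since H3K27me3 touched its H3K4me3 peak further inside the gene in both lists.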

How the data were processed

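Peak lists of 8 chromatin immunoprecipitation libraries were used; the 2 inputs are labelled but not analysed here. The submitters' processing notes name Bowtie2 2.4.1, MACS2 2.2.7.1 and GRCm38. Their settings, the treatment of duplicates and the role of the inputs were not given in the sources used here. A peak's pileup, per the file headers, is the coverage signal at its summit, and fold enrichment as deposited sets it against local background as a ratio. The authors also give -log10 of a p-value and of a q-value for that summit, and each list ends near -log10 q of 1.30 to 1.44.

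Antibody catalogue numbers matched between treatments, while the vendor labels differed for H3K4me3 and H3K27me3 and were given in control only for H3K9cr and H3K27ac. Groups came from sample titles.

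Peaks were compared with Python 3.11.15, pandas 2.3.3 and scipy 1.17.1. A peak was shared when 1 bp overlapped. A start window spanned 1 kb either side of each RefSeq start (17491 genes) or of both annotated ends where the table has none (4392 genes), so some windows lie at 3' ends. Counts of lost, gained or lower members are given with the percentage over all genes or peaks where it was computed. The interval functions were tested on simulated data. The members, the lists of pathway and marker genes and the settings were chosen with earlier results of these data known. All members are named; of the pathway list, genes whose start differed between treatments are named, with examples of those that match a member in all 8 lists; some are not reported here. Alternatives were the overlap rule, list depth, merging, region and window size.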

Additional observations from a re-analysis of the deposited data

How the results depend on the processing

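With 1 library per mark and treatment, no library could be left out, and depth beyond the peak lists is unknown. Of 88 values recomputed under other settings, 62 stayed within 1.5 times the value reported, and 0 covered lengths changed direction. Requiring an overlap of 50% of each peak gave 9 losses and 7 gains of H3K9cr, 40 losses and 47 gains of H3K27ac, and 11 losses and 5 gains of H3K27me3. With peaks within 1 kb counted as shared, H3K9cr gains numbered 1, and H3K27ac losses and gains 10 and 14. With the stronger 50% of each list, H3K4me3 losses and H3K9cr gains numbered 0, H3K27ac losses and gains 2 and 8, H3K27me3 losses and gains 1 and 1, and H3K27me3 was at 1 start in control and 1 after crotonate. The covered length then differed by -4.87 kb (H3K9cr) and -5.12 kb (H3K27me3), crotonate minus control. With peaks within 3 kb merged, H3K9cr gains numbered 1, H3K27ac losses and gains 4 and 8, and H3K27me3 losses 3, and cover differed by -0.589 kb (H3K9cr) and -3.62 kb (H3K27ac). In gene bodies alone, 4 H3K27me3 peaks were lost and cover differed by -5.16 kb. Fewer peaks, or fewer bases, enter by construction with the stronger 50%, merging and gene bodies; for the other settings the cause was not tested. Equal numbers of peaks moved no value beyond 1.5 times.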

Other observations

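Among all 11090 gene-site pairs of H3K9cr, the relation of site to start was 0.553 times as high after crotonate at the Fgfr1 site 18.3 kb into the gene and 0.592 times at the site 25.9 kb in, which puts them at percentiles 4.96 and 6.61. With fold enrichment the values were 0.448 and 0.450, at percentiles 3.38 and 3.46. For H3K27ac the same sites were at 1.17 and 0.915 times, percentiles 55.2 and 29.7 of 18660 pairs, but at 0.727 and 0.722 times and percentiles 15.8 and 15.4 with fold enrichment. These sites were singled out after their values were seen. The pairs they are ranked among include weak sites, which had little room to stand lower.

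At the Spry1 start the summits of H3K4me3 and H3K9cr lay 276 and 277 bp inside the gene in control and 1309 and 1362 bp inside after crotonate, within the same wide peaks, while the H3K27ac summit lay at 1324 and 1369 bp.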
